A study of Mus musculus with 8 samples.

Results

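The complement genes of brown adipose tissue (BAT) were examined: 31 mouse genes, chosen by name among the 56953 genes of the count matrix, that encode components, regulators and receptors of the complement system. RNA was sequenced from the BAT of 8 WT C57BL/6J mice, 8 to 10 weeks old and male or female, with the sex of each mouse not given. The 4 control mice (CTR) received PBS alone. The 4 mice with cancer-associated cachexia (CAC) received a subcutaneous injection of 3000000 LLC cells, a mouse Lewis lung carcinoma line, and mice of both groups were followed for 21 days. Injected mice that stayed without a tumor were left out, and each library comes from 1 mouse.

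Complement is a cascade of plasma proteins that tags microbes, immune complexes and dying cells for removal. The classical pathway starts when C1q, built from the A, B and C chains encoded by C1qa, C1qb and C1qc, binds its target and activates the proteases C1r and C1s. The alternative pathway runs on C3 and needs factor D, the protease adipsin encoded by Cfd, which cleaves factor B (Cfb) into the C3 convertase. Tissue macrophages are a main source of C1q, whereas adipocytes are the main source of factor D and also make C3. The liver makes most of the other plasma complement proteins.

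The libraries held 1823167 to 4827956 counts each, and a gene without reads could still have had up to 3 counts, or 0.66 to 1.62 CPM, by counting error alone. CPM stands for counts scaled by library size and edgeR's TMM factor and is the level used throughout. Of the 31 genes, 19 had enough counts for edgeR's quasi-likelihood test, which was run over 9876 genes with Benjamini-Hochberg adjustment, and 12 fell below its filter. The brown adipocyte markers were abundant in every library, with Ucp1 at 3590 to 4932 CPM. Hepatocyte genes (8 listed, all below the filter) summed to 0.54 to 3.19 CPM in 7 libraries but to 34.0 CPM in CAC 3, where 7 of the 8 genes had reads and together held 116 counts, and Apoh was at 0 in all 8 libraries. CAC 3 was also the only library with reads from 9 other complement genes, including Hc, C8a, Mbl1 and Crp, which hold 17 rounded counts there together and none elsewhere. Since several of the 31 genes are made by the liver, the results that rest on CAC 3 are given with and without it. The part of these liver transcripts in the results was not tested.

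Of the 19 genes tested, 4 were higher in CAC with an edgeR adjusted p below 0.05 (C1qa, C1qb, C3 and Clu), against 0.739% of all genes tested, and 0 were lower, against 0.192% of all genes. At an unadjusted p below 0.05 in the same test, 8 were higher (7.01% of all genes) and 1 was lower (5.93% of all genes), and after adjustment 5 were higher and 0 lower with DESeq2 (0.861% and 0.314% of all genes), and 3 higher and 0 lower with limma-trend (0.592% and 0.19% of all genes). In 4 genes every CAC library lay above every CTR library (3.64% of all genes), namely C1qa, C1qb, C3 and Cfp, and in 1 gene, C1qbp, every CAC library lay below (3.4% of all genes). In all, 14 of the 19 log2 fold changes were positive, and their median was 0.28, beside a median of 0.00 and 50.0% positive over all genes tested. Cfp passed the filter in 2 of 4 CTR but 4 of 4 CAC libraries, and C1rb in 2 and 3, so the tested genes are not all of the complement genes and are partly selected by their level in CAC. Without CAC 3, the number called fell to 2, C1qa and C1qb, while that over all genes fell from 92 to 60. It fell to the same 2 genes without CTR 1, where 42 genes were called in all, and to 3 without CAC 4, and reached 5 without CTR 4, CAC 1 or CAC 2.

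**Figure D1:**
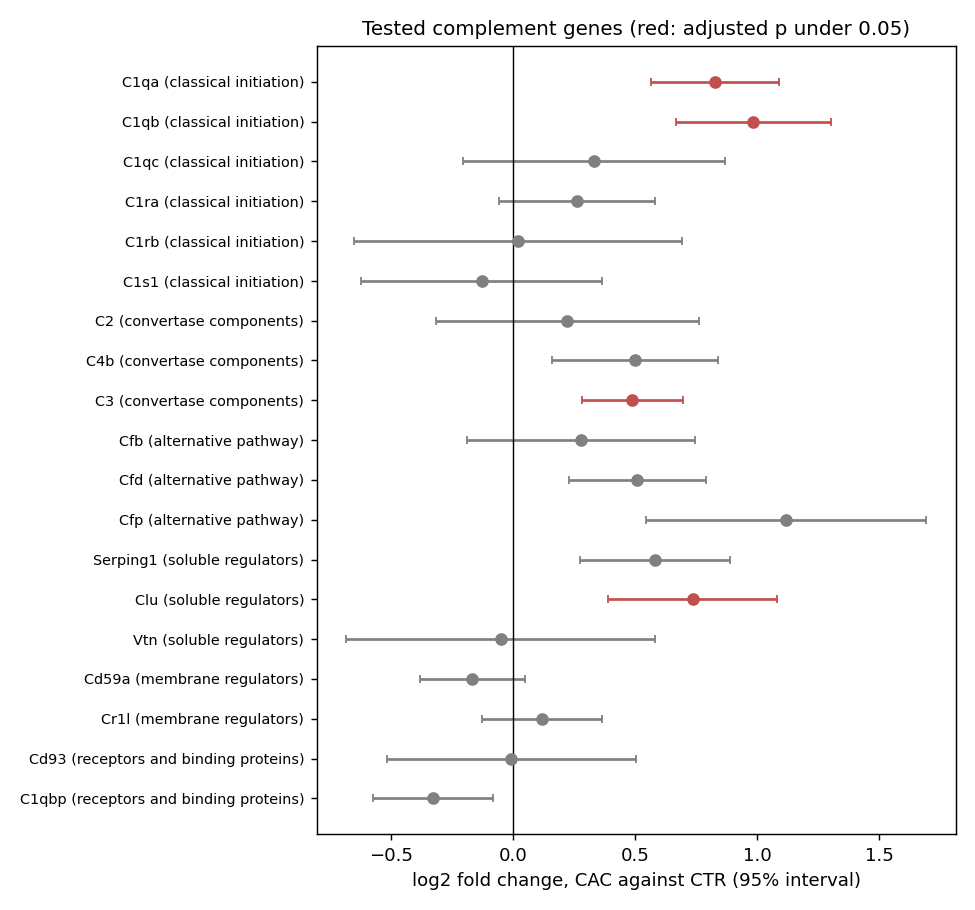
log2 fold change of CAC against CTR for the 19 complement genes tested, with 95% intervals from edgeR, in the order of their roles, and red for an adjusted p under 0.05. C1qa (0.83), C1qb (0.98), C3 (0.49) and Clu (0.74) are red, and Cfp has the largest estimate (1.12) with an interval from 0.54 to 1.69.

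The C1q chains lie next to each other on the minus strand of chromosome 4 (GRCm38, chr4:136880129-136898803, 18.7 kb), in the order C1qb, C1qc and C1qa. C1qa (ENSMUSG00000036887.6) had 37.4, 39.2, 43.6 and 51.2 CPM in CTR 1 to 4 and 86.0, 69.1, 80.6 and 69.7 CPM in CAC 1 to 4. All CAC libraries were above all CTR libraries, and the lowest of them was well clear of CTR 4. The log2 fold change was 0.83 (standard error 0.13, 95% interval 0.56 to 1.09, edgeR adjusted p = 0.0010), a 1.77-fold difference. C1qb (ENSMUSG00000036905.9) had 28.1, 30.9, 25.7 and 38.6 CPM in CTR and 45.4, 56.9, 71.2 and 70.8 CPM in CAC. Its groups did not overlap either, although CAC 1, which was highest for C1qa, was lowest for C1qb. C1qb rose 1.98-fold, a log2 fold change of 0.98 (standard error 0.15, 95% interval 0.67 to 1.30, edgeR adjusted p = 0.0014).

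C1qc (ENSMUSG00000036896.6), the chain with the fewest reads, had 13.0, 17.6, 7.88 and 11.5 CPM in CTR and 11.9, 13.3, 24.0 and 12.5 CPM in CAC. Only CAC 3 stood above the CTR range, and the other 3 CAC libraries lay inside it. The log2 fold change of 0.33 (95% interval -0.21 to 0.87, edgeR adjusted p = 0.64) became -0.01 without CAC 3. C1qc held 19 to 82 counts per library, against 104 to 275 for C1qa, and its interval includes the C1qa estimate of 0.83 but not the C1qb estimate of 0.98. Within a library, the C1qc to C1qb ratio differed between the groups by -0.67 on the log2 scale (exact two-sided permutation p = 0.0857), the C1qc to C1qa ratio by -0.53 (p = 0.2) and the C1qb to C1qa ratio by 0.14 (p = 0.543). These ratios and that of C3 to Cfd were chosen after their values were seen, and after adjustment over the 4 of them the permutation p ranged from 0.343 to 0.914. A difference between the chains in their change was not shown by these ratios. C1qa and C1qb kept an edgeR adjusted p below 0.05 in each of the 8 fits that left out 1 library, with log2 fold changes of 0.77 to 0.94 and of 0.90 to 1.13. Without CAC 3 these were 0.80 (edgeR adjusted p = 0.0114) and 0.90 (0.0185).

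**Figure D2:**
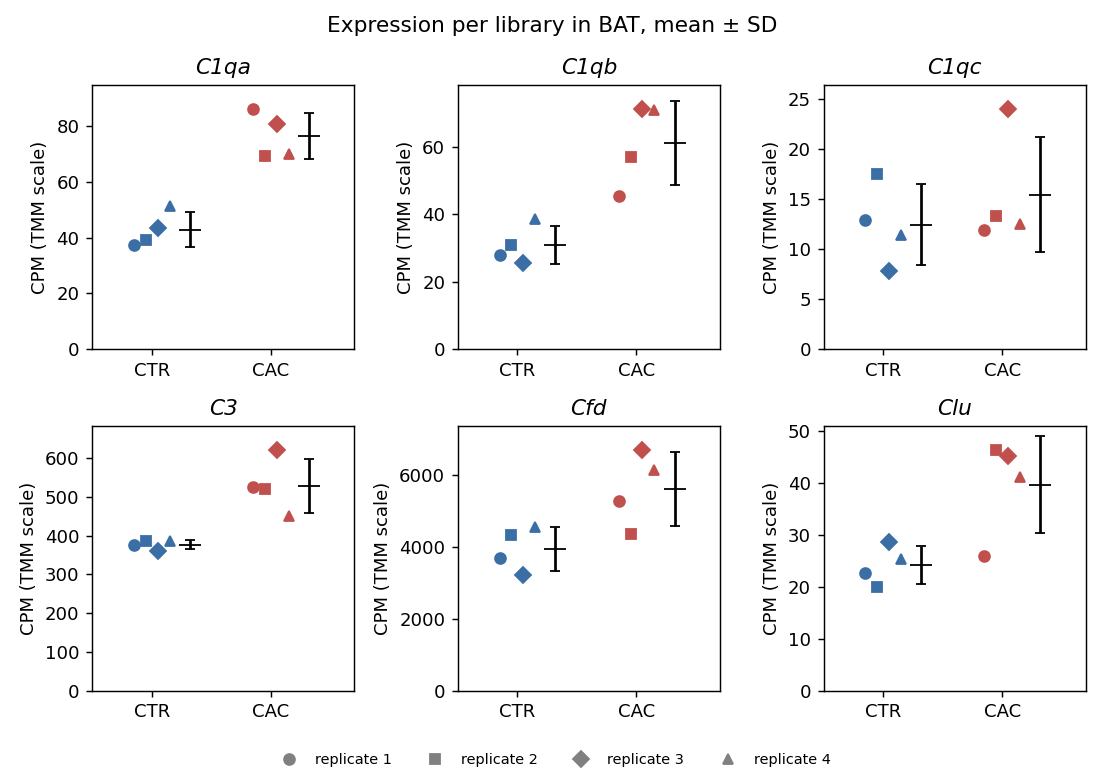
CPM on the TMM scale in each library for the 3 C1q chains, C3, Cfd and Clu, with marker shapes for the replicate number, and a black bar and whiskers for the mean ± SD of the 4 libraries of a group. C1qa, C1qb and C3 show no overlap between CTR and CAC, CAC 3 alone is high for C1qc at 24.0 CPM, and CAC 2 lies within the CTR range for Cfd at 4352 CPM.

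Cfd (ENSMUSG00000061780.7, chr10:79890853-79892655, plus strand), the adipsin gene, dominated the complement transcripts of BAT. It held 77.9% to 82.7% of the counts of the 31 genes in CTR and 78.5% to 84.2% in CAC. Its level was 3703, 4331, 3213 and 4560 CPM in CTR and 5281, 4352, 6697 and 6160 CPM in CAC. CAC 1, 3 and 4 were above all CTR libraries, and CAC 2 was level with CTR 2 and below CTR 4. The log2 fold change was 0.51 (standard error 0.13, 95% interval 0.23 to 0.79), or 1.42-fold, and it missed the threshold with an edgeR adjusted p of 0.0881. It passed with DESeq2 (adjusted p = 0.0439) and in the edgeR fits without CTR 4 (0.0451) or without CAC 2 (0.0179), and without CAC 3 the log2 fold change was 0.41 (0.204).

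C3 (ENSMUSG00000024164.16, chr17:57203970-57228136, minus strand), the protein on which all 3 pathways converge, had 375, 388, 360 and 386 CPM in CTR and 525, 520, 621 and 451 CPM in CAC. The CTR libraries were tightly grouped, with a coefficient of variation of 3.38% against 13.2% in CAC, and each CAC library was above them. C3 rose 1.40-fold, a log2 fold change of 0.49 (standard error 0.10, 95% interval 0.28 to 0.70, edgeR adjusted p = 0.0166). The call was lost without CAC 3, the library with liver transcripts, where the log2 fold change was 0.40 (edgeR adjusted p = 0.0740), and without CTR 1, where it was 0.48 (0.0741). The CAC 1, 2 and 4 libraries, with at most 3.19 CPM of hepatocyte genes, were also each above the CTR libraries for C3.

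On the scale of CPM per kilobase of merged exons, Cfd had a mean level of 4286 in CTR and 6098 in CAC, followed by C3 at 73.4 and 103, C1qa at 41.2 and 73.4, C1qb at 28.3 and 56.1 and C1qc at 6.46 and 8.00. Cd59a, at 74.2 and 66.0 CPM per kilobase, was as high as C3 in CTR. The labels do not state whether reads came from whole transcripts or from their 3′ ends, and in the latter case division by length lowers long genes such as C3.

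The change of macrophage-made C1q was compared with that of adipocyte-made Cfd and C3 as a log2 ratio of counts within each library, which does not depend on the scaling between libraries. The C1qb to Cfd ratio was -7.03, -7.13, -6.95 and -6.88 in CTR and -6.85, -6.25, -6.55 and -6.44 in CAC. Every CAC library was above every CTR library, CAC 1 by little, and the means differed by 0.47 (exact two-sided permutation p = 0.0286, the smallest that 4 against 4 libraries allow, and 0.114 after adjustment over 6 ratios). For C1qa to Cfd, the ratio was -6.62, -6.78, -6.20 and -6.47 in CTR and -5.94, -5.97, -6.37 and -6.46 in CAC, and the groups overlapped. That difference was 0.33 (exact permutation p = 0.143, adjusted 0.214). The C1qa to C3 and C1qb to C3 ratios were higher by 0.36 and 0.50, in each case with 3 of 4 CAC libraries above all CTR libraries (exact permutation p = 0.0571, adjusted 0.114, for both). The C1qc ratios were lower, by 0.20 to Cfd and by 0.17 to C3 in the means, with overlapping groups (difference -0.20, exact permutation p = 0.486, and -0.17, p = 0.514, both adjusted to 0.514). None of the 6 ratios therefore passed after adjustment, and a larger rise of C1q than of Cfd or C3 was not shown. The C3 to Cfd ratio differed by -0.02 (exact permutation p = 0.914).

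**Figure D3:**
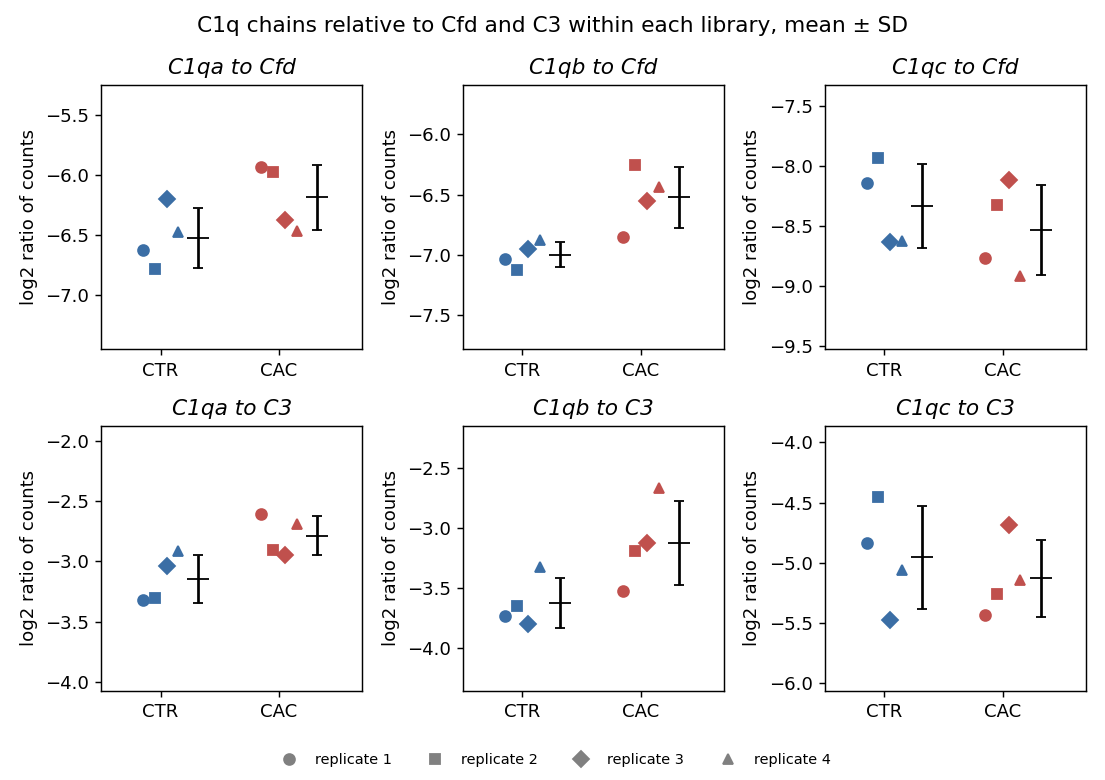
log2 ratio of the counts of each C1q chain to Cfd (upper row) and to C3 (lower row) within each library, with the mean ± SD of 4 libraries in black and the same span of the vertical axis in each panel. Only the C1qb to Cfd ratio separates the groups, with CTR from -7.13 to -6.88 and CAC from -6.85 to -6.25.

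Cell type markers were read beside these genes, since in bulk tissue fewer cells of a type and less RNA per cell cannot be told apart. Of 14 macrophage markers, 11 were tested, all 11 were higher in CAC and 2 had an edgeR adjusted p below 0.05, Tyrobp (log2 fold change 0.96, adjusted p = 0.0201) and Fcer1g (1.15, 0.010), which encode signalling adaptors of myeloid receptors. Over all genes tested, 0.739% were called higher and 50.0% had a positive log2 fold change. Of the 11 markers, 6 were higher at an unadjusted p below 0.05 in edgeR (7.01% of all genes). In 5 of them, every CAC library lay above every CTR library (3.64% of all genes). The 14 markers summed to 193 to 222 CPM in CTR and 246 to 350 CPM in CAC, without overlap, and Adgre1, which encodes the macrophage surface protein F4/80, reached 2.44 CPM at most. The C1q chains summed to 77.2 to 101 CPM in CTR and 139 to 176 CPM in CAC. Per CPM of macrophage markers, the C1q sum was 0.354 to 0.514 in CTR and 0.502 to 0.566 in CAC, and these ranges overlapped. Lyz2 alone averaged 66.8 CPM in CTR and 88.1 CPM in CAC within the marker sum. Without Lyz2, the markers summed to 123 to 147 CPM in CTR and 181 to 245 CPM in CAC. Relative to that smaller sum, the C1q ranges of the groups no longer overlapped, though they lay close together. The part of macrophage number in the C1q difference was not tested.

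All 10 brown adipocyte markers were tested. Of these, 7 were higher and 3 lower in CAC, beside 50.0% higher over all genes tested. Only 1, Ppargc1a, a coactivator of thermogenic genes, passed the test (log2 fold change 0.73, edgeR adjusted p = 0.0201), against 0.739% of all genes called higher. At an unadjusted p below 0.05 in edgeR, 2 were higher (7.01% of all genes) and 1 was lower (5.93% of all genes). Plin1, which encodes the lipid droplet protein perilipin, was at 644 to 680 CPM in CTR and 489 to 617 CPM in CAC. Its groups did not overlap, as in 3.4% of all genes lower in CAC (log2 fold change -0.27, unadjusted p = 0.0084 and adjusted p = 0.192 in edgeR). Cidec had an unadjusted p of 0.0326 in edgeR (0.21, adjusted p = 0.326). The 10 markers summed to 16595 to 18408 CPM in CTR and 16318 to 18556 CPM in CAC. Most of this sum came from Cidea, Ucp1 and Fabp4, with CTR means of 5869, 3965 and 3784 CPM beside a mean sum of 17118 CPM. Against this sum, the Cfd level amounted to 22.1%, 25.9%, 19.4% and 24.8% in CTR and 28.5%, 26.2%, 41.0% and 34.1% in CAC. All 4 CAC libraries were thus above the CTR libraries, CAC 2 by little. The C3 level amounted to 2.10% to 2.32% of the same sum in CTR and 2.49% to 3.80% in CAC. The part of adipocyte number in the Cfd and C3 differences was not tested. Fibroblast and progenitor markers (10 tested, 4 higher and 6 lower) summed to 971 to 1232 CPM in CTR and 783 to 1157 CPM in CAC. Endothelial markers (6 of 7 tested, 3 higher and 3 lower) summed to 245 to 324 and 206 to 287 CPM. No gene of these lists passed edgeR's test after adjustment, and DESeq2 and limma-trend also gave 0 calls in both lists. At an unadjusted p below 0.05 in edgeR, 1 fibroblast and 1 endothelial gene were higher (7.01% of all genes tested). At the same threshold, 1 endothelial gene was lower (5.93% of all genes).

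**Figure D4:**
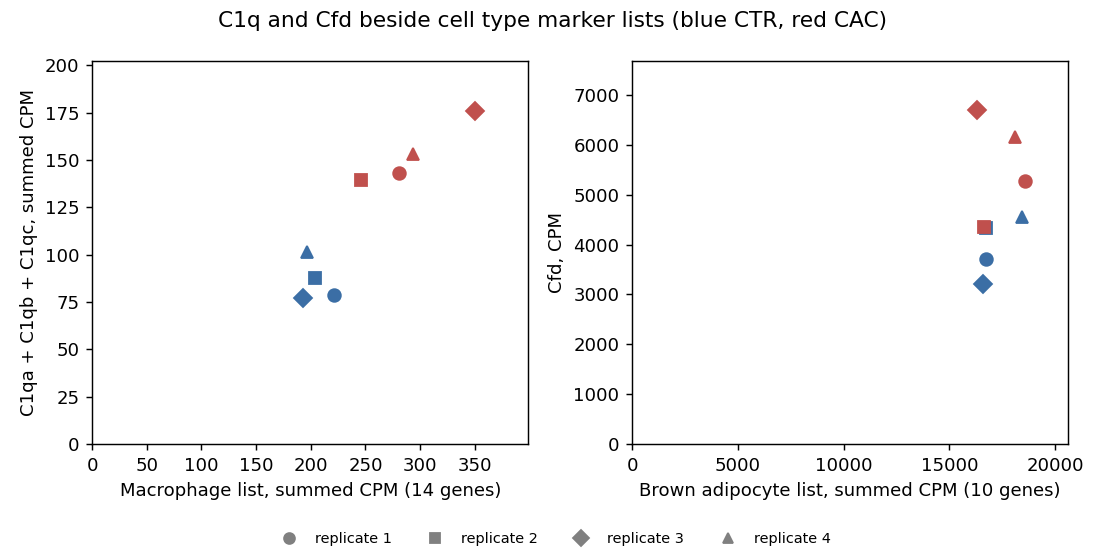
Left, summed CPM of the C1q chains against the summed CPM of 14 macrophage markers, and right, CPM of Cfd against the summed CPM of 10 brown adipocyte markers, with 1 point per library (blue CTR, red CAC, shapes for the replicate number). CAC libraries are higher on both axes on the left, and on the right the marker sums of the groups overlap between 16595 and 18408 CPM while Cfd spans 3213 to 6697 CPM.

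Sequences upstream of the start sites of C1qb, Cfd and C3 are shown because these genes carry the comparison of macrophage with adipocyte transcripts. They are the 250 bases before the start site, 5′ to 3′ on the gene's strand, from the promoter table of RefSeq (GRCm38.p6), which matched 22 of the 31 genes and does not include C1qa. Capitals mark exact matches, on either strand, to a core of the macrophage factor PU.1 (GAGGAA), a form of the C/EBP site (TTNNGNAAT) or a TATA box (TATAAA). Of 32851 promoters of the table, searched over the same length, 23.3% hold the PU.1 core, 10.2% the C/EBP form and 12.4% the TATA box.
C1qb (chr4:136886201-136886450, minus strand): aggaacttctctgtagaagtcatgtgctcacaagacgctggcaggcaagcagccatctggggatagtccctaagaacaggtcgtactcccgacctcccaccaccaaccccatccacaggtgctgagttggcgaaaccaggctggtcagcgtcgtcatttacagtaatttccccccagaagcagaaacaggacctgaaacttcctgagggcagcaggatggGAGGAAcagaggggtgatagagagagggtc
Cfd (chr10:79890603-79890852, plus strand): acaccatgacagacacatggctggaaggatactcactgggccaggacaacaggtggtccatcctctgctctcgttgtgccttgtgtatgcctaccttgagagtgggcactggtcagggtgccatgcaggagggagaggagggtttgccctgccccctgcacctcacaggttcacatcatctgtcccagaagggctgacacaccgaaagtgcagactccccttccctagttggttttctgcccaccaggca
C3 (chr17:57228137-57228386, minus strand): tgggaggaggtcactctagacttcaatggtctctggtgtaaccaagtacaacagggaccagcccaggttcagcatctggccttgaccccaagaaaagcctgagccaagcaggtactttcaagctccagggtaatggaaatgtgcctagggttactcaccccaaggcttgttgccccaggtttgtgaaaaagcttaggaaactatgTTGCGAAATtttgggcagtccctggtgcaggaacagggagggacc
In C1qb the PU.1 core begins at position -30 from the start site, and C1qc holds it on the opposite strand at -193. C3 has a C/EBP match at -45, and the Cfd window holds none of the 3 motifs. A match of such short letters is a description of the window only.

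The proteases that C1q activates did not follow it to a degree the test could detect. C1ra and C1rb (C1r) and C1s1 and C1s2 (C1s) lie within 124 kb on chromosome 6. C1ra was at 17.3 to 22.4 CPM in CTR and 20.9 to 26.6 CPM in CAC (log2 fold change 0.26, 95% interval -0.06 to 0.58, edgeR adjusted p = 0.50). C1s1 was at 9.54 to 13.8 and 6.38 to 13.2 CPM (-0.13, interval -0.62 to 0.36), and an exon of Gm16567 overlaps it on the opposite strand. Without CAC 3, the C1s1 log2 fold change was -0.34 (edgeR adjusted p = 0.640). C1rb, at 2.49 to 5.29 CPM in CTR and 3.49 to 4.69 CPM in CAC, had a log2 fold change of 0.02 whose sign turned with upper quartile scaling. C1s2 never exceeded 0.5 of a read in a library, and since C1r and C1s each have a near-identical mouse copy, reads may be split or shared between copies.

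Among the other components of the convertases, C4b (ENSMUSG00000073418.5), which encodes C4, had 36.7, 45.8, 27.4 and 46.7 CPM in CTR and 41.1, 58.0, 64.2 and 59.6 CPM in CAC. CAC 1 fell within the CTR range and the other 3 lay above it (log2 fold change 0.50, standard error 0.16, 95% interval 0.16 to 0.84, unadjusted p = 0.0061 and adjusted p = 0.165 in edgeR). Without CAC 3, the C4b log2 fold change was 0.42 (edgeR adjusted p = 0.356). The C4b counts were not whole in 2 libraries. Its paralog C4a, at 0.83 to 3.09 CPM in CTR and 2.05 to 2.79 CPM in CAC, may share reads with it. C2, which joins C4b in the classical convertase, was at 5.04 to 10.1 CPM in CTR and 5.95 to 10.6 CPM in CAC (0.22, interval -0.32 to 0.76). Cfb, the substrate of factor D, was at 8.26 to 12.1 and 8.51 to 14.7 CPM (0.28, interval -0.19 to 0.75). Without CAC 3, the Cfb log2 fold change was 0.11 (edgeR adjusted p = 0.914). C2 and Cfb are neighbours on chromosome 17, and both share exons with the annotated readthrough gene Gm20547 on the same strand, so their reads cannot be fully separated.

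Properdin (Cfp, ENSMUSG00000001128.8), which stabilises the alternative convertase and is made by myeloid cells, had the largest estimate of the 19 at a low level. It had 4.32, 5.06, 3.32 and 2.87 CPM in CTR and 8.11, 5.85, 10.3 and 8.72 CPM in CAC, from 8 to 35 counts per library. All CAC libraries were above the CTR libraries, CAC 2 by the least. The log2 fold change of 1.12 (standard error 0.28, 95% interval 0.54 to 1.69) had an edgeR adjusted p of 0.0559, and of 0.0458 without CAC 2. Without CAC 3 it was 0.98 (0.190). The neutrophil list summed to 6.12 to 6.92 CPM in CTR and 165 to 432 CPM in CAC, nearly all of it from S100a8 and S100a9, which cells other than neutrophils can also express. Of the 11 markers listed, S100a8, S100a9 and Retnlg were tested and called (edgeR adjusted p of 0.0052, 0.00018 and 0.0155), but they passed the filter through CAC, with 1, 0 and 0 CTR libraries over it, so that count carries no weight. The other 8 reached 3.24 CPM at most. Among them, Ngp had at most 0.415 CPM in CTR and 1.62 to 2.64 CPM in CAC, and Cxcr2 had no reads in CTR and 1.08 to 2.66 CPM in CAC, values that lie partly within the counting error of a gene without reads. Ly6g and Mpo reached 0.54 CPM and Elane 1.06 CPM. The part of neutrophils in the Cfp difference was not tested.

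The soluble regulators gave 1 call. Clu (ENSMUSG00000022037.16) encodes clusterin, a secreted chaperone that blocks assembly of the membrane attack complex. It had 22.7, 19.97, 28.6 and 25.4 CPM in CTR and 25.9, 46.3, 45.1 and 41.1 CPM in CAC, so that CAC 1 lay within the CTR range and the other 3 well above it. Clu rose 1.66-fold, a log2 fold change of 0.74 (standard error 0.17, 95% interval 0.39 to 1.08, edgeR adjusted p = 0.0343), but 5 of the 8 fits with a library left out lost the call. These were the fits without CTR 1, CTR 2, CAC 2, CAC 3 or CAC 4, where the edgeR adjusted p was 0.114, 0.131, 0.104, 0.122 and 0.0858. The log2 fold change in these 5 fits was 0.71, 0.65, 0.67, 0.66 and 0.73, close to its value over all libraries. Serping1 (ENSMUSG00000023224.13), which encodes the C1 inhibitor that inactivates C1r and C1s, had 52.9, 71.1, 54.4 and 57.1 CPM in CTR and 63.8, 78.7, 104 and 104 CPM in CAC. Here CAC 1 overlapped the controls and CAC 3 and 4 were the highest (log2 fold change 0.58, standard error 0.15, 95% interval 0.27 to 0.89, edgeR adjusted p = 0.0652). Its edgeR adjusted p was 0.0431 without CTR 2 and 0.0095 without CAC 1. Without CAC 3, the log2 fold change of Serping1 was 0.49 (0.194). Vtn, which encodes vitronectin, was at 3.53 to 5.86 CPM in CTR and 2.70 to 4.98 CPM in CAC (-0.05, interval -0.68 to 0.58). Without CAC 3, the Vtn log2 fold change was -0.13 (edgeR adjusted p = 0.927).

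Of the 4 membrane regulators, which protect host cells, 2 were tested and neither passed. Cd59a, the inhibitor of the terminal pore, was the most abundant of them at 120 to 144 CPM in CTR and 110 to 130 CPM in CAC (log2 fold change -0.17, 95% interval -0.38 to 0.05, edgeR adjusted p = 0.53), and its counts were not whole in 7 of 8 libraries, as happens where a read fits several places. Its paralog Cd59b, at 8.65 to 16.5 CPM, had a log2 fold change of 0.12. Cr1l, which encodes the rodent regulator Crry, was at 42.8 to 49.8 CPM in CTR and 45.2 to 56.5 CPM in CAC (0.12, interval -0.13 to 0.36). Cd46 and Cd55 were below the filter, at 2.16 to 4.25 and 0.54 to 3.52 CPM, and a change in them was not detectable at this depth.

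Of the receptors and binding proteins, C1qbp was the only complement gene lower in CAC at an unadjusted p below 0.05. It encodes a mainly mitochondrial protein that can bind C1q. C1qbp (ENSMUSG00000018446.9) had 65.5, 70.8, 59.8 and 59.5 CPM in CTR and 43.8, 50.0, 55.1 and 53.7 CPM in CAC. The groups did not overlap, and the log2 fold change was -0.33 (standard error 0.12, 95% interval -0.57 to -0.08, unadjusted p = 0.0110 and adjusted p = 0.220 in edgeR). Cd93, once described as a C1q receptor and present on endothelial cells, ranged from 40.6 to 68.7 CPM in CTR and from 33.8 to 69.7 CPM in CAC (-0.01, interval -0.52 to 0.50). The anaphylatoxin receptors, which sense the cleavage products of C3 and C5, were all below the filter. C3ar1 had 4 to 18 counts, at 1.98 to 2.90 CPM in CTR and 1.39 to 5.32 CPM in CAC, C5ar1 at most 6 counts, and C5ar2 at most 4.

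The remaining low genes belong to the lectin and terminal pathways and the fluid-phase inhibitors. Masp1 and Masp2, the lectin pathway proteases, reached 2.64 and 1.06 CPM, C6 and C7 of the membrane attack complex reached 1.76 and 1.05 CPM, and C8g was at 1.60 to 4.63 CPM. Cfi, the protease factor I, had 0 counts in every library, which allows up to 0.66 to 1.62 CPM depending on the library. A further list of 31 complement genes, not part of the set above, held 3 that could be tested. At an unadjusted p below 0.05 in edgeR, 1 was higher (7.01% of all genes tested). All 3 had a positive log2 fold change (50.0% of all genes), and edgeR, DESeq2 and limma-trend called 0 after adjustment. Fcna, the ficolin A gene of macrophages, had the largest of these estimates, with 2.49 to 7.06 CPM in CTR and 7.03 to 16.1 CPM in CAC (log2 fold change 1.16, edgeR adjusted p = 0.076). The other tested genes were Cpn2 (0.26) and Cd59b, and C8b, Cfhr3, Mbl2, Colec10, C4bp and Cd55b were at 0 in every library.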

How the data were processed

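Libraries of BAT RNA (4 CTR, 4 CAC, each from a different mouse) were grouped by their labels. The authors aligned the reads to mm10 with Hisat2 and counted them on genes with featureCounts, with multi-mapping reads included, and deposited expected counts (25.1% to 28.4% of nonzero values are not whole). The strand setting is not given in the sources used here. The authors also deposited their DESeq2-normalized signal for 24792 genes, which served 1 alternative only.

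Expected counts were rounded and fitted with edgeR 4.0.16 in R 4.3.3 (filterByExpr, TMM, robust quasi-likelihood test, no covariate, threshold 0.05). Ratios used counts plus 0.5, tested over the 70 assignments of the libraries (exact permutation, two-sided). Coordinates are those of GRCm38 (GENCODE, matched by ID without version). Alternatives were DESeq2 1.42.0, other scalings and filters, a replicate block, limma-trend (limma 3.58.1), a pseudocount of 1 and leaving out each library. Counts without their decimals were added after seeing the data. The edgeR fit, but not the other steps, was tried on simulated counts. The members and all marker lists were chosen with earlier results of these data known. All 31 genes are reported, in full where an adjusted or unadjusted p was below 0.05 and for C1q, Cfd and C3, and otherwise by range. Of the further complement list, 1 gene is not reported here. The labels name no preparation batch. No 2 libraries of a group agreed within sampling noise (chi-square per degree of freedom at least 4.21). Figures used matplotlib 3.10.9 in Python 3.11.15.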

Additional observations from a re-analysis of the deposited data

Results flagged for a closer look

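Of 62 sets of 4 libraries examined (a gene, ratio or list in CTR or CAC), 5 held 1 library far from the other 3 by Dixon's criterion, where chance alone gives about 3.1 (1 in 20). The ratio sets reuse counts of the gene sets, so the 62 are not independent.

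C1qc was at 24.0 CPM in CAC 3, against 11.9 to 13.3 CPM in the other CAC libraries. Vtn was at 2.70 CPM in CAC 1, against 4.79 to 4.98 CPM in the others. The hepatocyte list summed to 34.0 CPM in CAC 3, against 0.54 to 3.19 CPM in the other CAC libraries. The brown adipocyte list summed to 18408 CPM in CTR 4, against 16595 to 16739 CPM in the other CTR libraries. The endothelial list summed to 206 CPM in CAC 4, against 277 to 287 CPM in the other CAC libraries. The causes were not tested.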

How the results depend on the processing

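Among the complement genes, C1qa and C1qb kept their direction and an adjusted p below 0.05 in all alternatives run, with log2 fold changes of 0.77 to 0.94 and 0.90 to 1.13 over the fits that left out 1 library and of 0.80 to 0.83 and 0.96 to 0.99 over the others. Without the filter on low counts, 8 complement genes and 351 genes in all were called (C4b, Cfd, Cfp and Serping1 were added to the 4). With the replicate number as a block, 4 complement genes and 140 genes in all were called, and the block changed no complement call. Same-numbered libraries did not deviate together (correlations of 0.031, -0.023, 0.028 and 0.036, and 2 of 4 correlated best with their own number), so the numbers do not pair the mice. Leaving out each library gave 2 to 5 complement genes, and 42 genes in all without CTR 1 to 135 without CTR 3. Clu lost its call with limma-trend on the deposited signal (adjusted p = 0.0743). Signs turned for Cd93 with DESeq2 (0.0066), for C1rb with upper quartile scaling (-0.0031) and with no filter (-0.0053), and with a library left out for C1qc (-0.013 to 0.55), C1rb (-0.11 to 0.24), C1s1 (-0.34 to 0.015), Vtn (-0.19 to 0.10) and Cd93 (-0.16 to 0.17), none of them called in these fits. The cause was not tested. The 6 ratios kept their direction in every alternative, with adjusted p of 0.114 to 0.971. Since 0.0286 is the smallest p of a single ratio, most of the 6 would have to reach it together to pass, so these p-values say nothing about stability. Depth limits the 12 genes below the filter, of which 8 never exceeded 9 counts in a library.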
